A study of Mus musculus with 25 samples.

Results

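The comparison described here asks what 30% calorie restriction added to a low-fat diet in formerly obese mice, read as DNA methylation of the mammary fat pad. It set 4 mice on a low-fat diet with restriction (LFCR, mice 63, 67, 69 and 72) against 3 mice on the same kind of diet eaten freely (LFD, mice 42, 47 and 48). These are 7 of the 25 samples of the series. All were C57BL/6N mice, wild type per the labels, that had first become obese on a 60% high-fat diet. At 25 weeks after the first randomization, E0771 mouse mammary cancer cells were injected into the 4th fat pad of every mouse, and the tumours grew until the endpoint. The DNA came from the 9th fat pad, on the opposite side. Every mouse in both groups therefore had a history of obesity and carried a tumour elsewhere. The labels call the tissue normal, while the sample titles hold the word tumor and the labels also list E0771 as a cell line. The other groups ate a control diet throughout (Control, n = 5), stayed obese (Obese, n = 4), or lost weight on a Mediterranean-style diet with 30% restriction (MCR, n = 3) or on intermittent restriction (ICR, n = 5). Each library is named after 1 mouse, and nothing in the labels speaks of pooling. The remaining LFD library, mouse 46, was left out because it read 50.1% on average at 22888 CpGs whose Control mean is under 5%. The 7 libraries compared read 1.09% to 1.76% there.

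Methylation was measured by reduced representation bisulfite sequencing (RRBS), which sequences short MspI fragments and so samples CpG islands and other CpG-dense DNA. Members of the comparison were the CpG positions on chr1 to chr19 with an average coverage of at least 10 reads and a value in at least 3 libraries of each group. They numbered 203589 of the 283974 listed, of which 273804 lie on these chromosomes and 251026 of those have the coverage. The average coverage is over 21 libraries and had a median of 39.3 reads at the tested positions (25th and 75th percentiles 25.1 and 66.5). Depth per library is unknown, so no counting interval can be given for a single value. LFCR mouse 67 had a value at 89.3% of the tested positions, LFCR mouse 63 at 97.9%, and the other 5 at 99.7% or more.

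A methyl group on the cytosine of a CpG is copied at each cell division and is removed passively or through oxidation by Tet enzymes. CpG islands at promoters are mostly unmethylated, while gene bodies and the DNA between genes are mostly methylated. Each cell type has its own pattern at enhancers, first exons and lineage genes. The mammary fat pad holds adipocytes, stromal and endothelial cells, leukocytes and a branching epithelium. In such bulk DNA, a changed share of a cell type and a changed level within its cells cannot be told apart. Fasting and restriction act on insulin, mTOR, sirtuin and FOXO signalling, and the genes of these pathways were among the lists described below.

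No CpG position, promoter or region passed the test between LFCR and LFD. With limma on the 7 libraries and Benjamini-Hochberg adjustment, 0 of 203589 CpG positions, 0 of 4043 promoters and 0 of 24059 regions had an adjusted p under 0.05 (0% in each case). The smallest adjusted p was 1 for CpG positions and 0.995 for promoters. An unadjusted p under 0.05 was found at 8666 CpG positions (4.26%), 140 promoters (3.46%) and 564 regions (2.34%). A promoter here is the set of a gene's CpGs annotated upstream of the start, to the 5'UTR or to the 1st exon, and a region is a run of at least 3 tested CpGs at most 100 bp apart. The CpGs of a promoter can therefore lie far apart, across up to 182321 bp among the promoters named below (Sox2ot). The 95% interval of a difference had a median half-width of 5.20 percentage points for promoters, 9.77 for regions and 12.5 for CpG positions. A count of 0 calls from 7 mice does not show that the diets gave the same methylation.

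The direction of the promoter differences was uneven. LFCR was the lower group at 2713 of 4043 promoters (67.1%), with a median difference of -0.648 points. All LFCR mice lay below all LFD mice at 155 promoters (3.83%) and above them at 41 (1.01%). For CpG positions the same counts were 6077 (2.98%) and 3073 (1.51%), and for regions 723 (3.01%) and 308 (1.28%). Among the 140 promoters with an unadjusted p under 0.05, 113 were lower in LFCR and 27 higher. Neighbouring promoters and CpGs vary together within a mouse, so these counts are not independent observations.

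Mean methylation did not separate the diets. Averaged over the 176625 CpG positions measured in all 7 mice, LFCR mice 63, 67, 69 and 72 stood at 48.6%, 49.1%, 53.9% and 56.1%. LFD mice 42, 47 and 48 stood at 50.3%, 56.2% and 54.3%. LFCR mice 63 and 67 were the lowest of the 7, and the other LFCR mice lay within the range of the LFD mice, so the groups overlapped. The means were 51.9% ± 3.64 (SD, n = 4) and 53.6% ± 3.03 (SD, n = 3). The difference was -1.65 points (exact permutation test, two-sided, p = 0.543; 95% interval by permutation -9.43 to 8.02). With 35 possible splits, the smallest p this design allows is 0.0286.

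LFCR mice 63 and 67 were the lowest of the 7 in islands, shores, shelves and open sea, as the plot of means by context shows. In CpG islands LFCR averaged 18.4% ± 2.15 (SD, n = 4) and LFD 19.8% ± 1.38 (SD, n = 3). In open sea, the CpGs far from islands, the values were 66.5% ± 4.18 and 68.3% ± 3.55. First exons differed by -1.46 points, gene bodies by -1.70 and 3'UTRs by -1.96. All 11 contexts and gene features had lower LFCR means, and each had an adjusted p of 0.571 (exact permutation test, Benjamini-Hochberg over the 11).

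**Figure D1:**
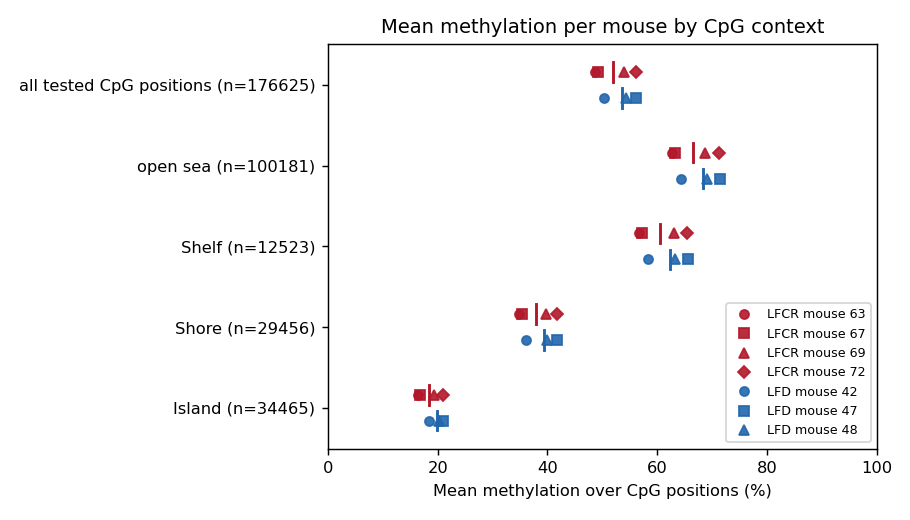
Mean methylation in percent (x axis) of each mouse over the CpG positions measured in all 7 mice, by context (y axis, n = number of positions). Points are mice and vertical bars are group means, red for LFCR and blue for LFD. The groups overlap in each of the 5 rows.

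Both low-fat groups spanned much of the range of the series. Over the 93945 CpG positions measured in 21 libraries, LFCR averaged 50.2% ± 3.89 (SD, n = 4) and LFD 51.9% ± 3.21 (SD, n = 3). Control averaged 56.3% ± 1.54 (SD, n = 5), ICR 53.2% ± 1.49 (SD, n = 5) and MCR 46.9% ± 0.354 (SD, n = 3). The lowest LFCR mouse, at 46.6%, lay at the level of MCR, and the highest, at 54.6%, lay among the Control and ICR mice. The lowest LFD mouse was at 48.4% and the highest at 54.8%.

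Mice of the same diet were not more alike than mice of different diets. Over 63934 CpG positions with a Control mean of 20% to 80%, the mean absolute difference between LFCR mice was 8.63 to 17.7 points (median 13.5, 6 pairs). Between LFD mice it was 9.28 to 15.6 points (median 11.7, 3 pairs), and between an LFCR and an LFD mouse 7.62 to 17.9 points (median 11.1, 12 pairs). The closest pair of all was LFCR mouse 69 with LFD mouse 48, and LFCR mouse 63 was 10.1 points from LFD mouse 42 but 17.7 points from LFCR mouse 72. Pairs share mice, so no test was made. LFCR mice 63 and 67 and LFD mouse 42, which had the lowest means, also had values at fewer of all listed positions (85.4%, 71.7% and 83.3%) than the other 4 mice (91.3% to 97.5%). The part of this in the means was not tested.

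The differences between the diets were smallest in absolute size, and the mice most alike, at unmethylated CpGs. At 27642 CpG positions with a Control mean under 10%, LFCR mice 63, 67, 69 and 72 read 2.47%, 2.71%, 2.80% and 2.85%. The level was 2.94%, 3.07% and 3.26% in LFD mice 42, 47 and 48. Here the groups did not overlap, and every LFCR mouse lay below every LFD mouse. The difference was -0.382 points (exact permutation test, two-sided, p = 0.0286, the smallest this design can give; adjusted p = 0.171 over the 6 level classes). The test was chosen after the classes had been seen, and when the ICR mice set the classes the difference was -0.513 points with overlapping groups (exact permutation p = 0.2).

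At CpGs of intermediate level the spread between mice was far larger than the difference. At 21435 CpG positions with a Control mean of 50% to 70%, LFCR mice 63, 67, 69 and 72 had 42.3%, 43.3%, 53.0% and 58.0%. LFD mice 42, 47 and 48 had 45.2%, 58.0% and 53.5%. The groups overlapped, with a difference of -3.11 points (exact permutation p = 0.543, adjusted p = 0.651). The MCR mice ranged from 41.7% to 43.1% and the ICR mice from 49.95% to 58.6% at these positions, so LFCR mice 63 and 67 lay close to MCR and mice 69 and 72 within the ICR range. The plot of the level classes shows both patterns.

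**Figure D2:**
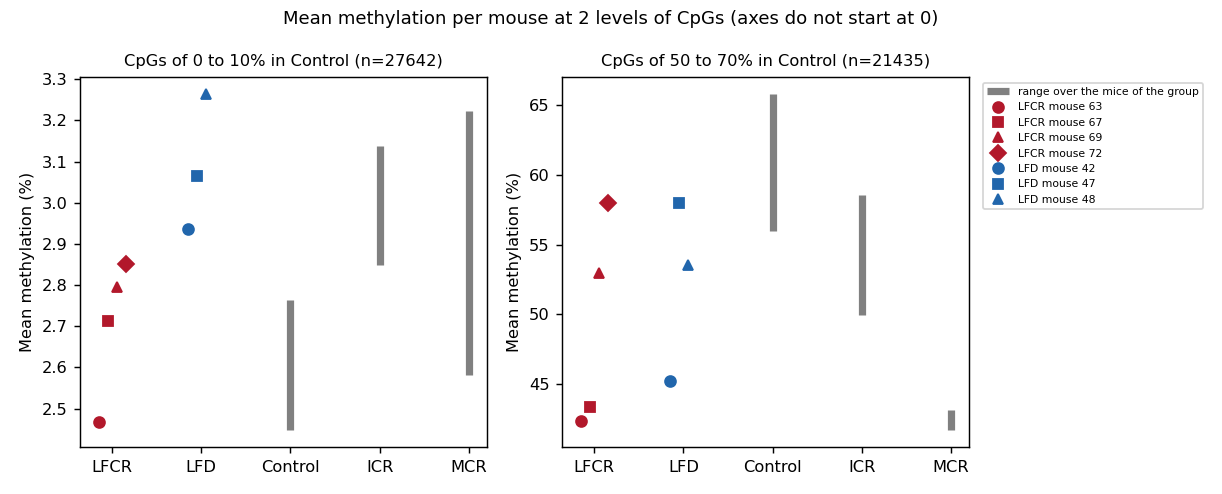
Mean methylation in percent (y axis, not starting at 0) at CpG positions of 0 to 10% (left) and 50 to 70% (right) in Control. Coloured points are LFCR and LFD mice, and grey bars are the range over the mice of Control, which set the classes, ICR and MCR. The LFCR and LFD mice are apart on the left and overlap on the right.

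Weakly methylated promoters made up 79 of the 155 at which LFCR lay wholly below LFD. Among 1511 promoters with a Control mean under 10%, the restricted mice were wholly below at 79 (5.23%) and wholly above at 15 (0.993%). In the 5 higher classes the shares were 1.36% to 4.03% wholly below and 0.813% to 1.34% wholly above, with no steady order by level. The lowest share below was at 70% to 90% and the highest of these at 90% to 100%. The median difference was -0.242 points in the class under 10% and -1.75 at 70% to 90%. The median SD between LFCR mice was 0.714 and 5.53 points in these classes.

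**Figure D3:**
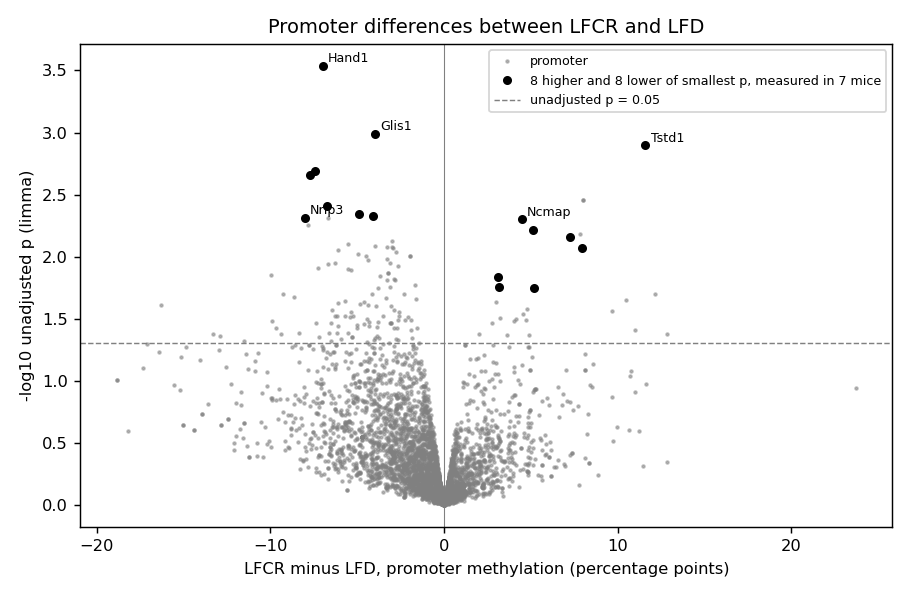
Difference in promoter methylation, LFCR minus LFD, in percentage points (x axis) against the negative log10 of the unadjusted limma p (y axis) for 4043 promoters. Black points are the 8 promoters of smallest p in each direction that were measured in all 7 mice. None of the promoters passed after adjustment.

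The 16 promoters with the smallest unadjusted p, 8 in each direction among those measured in all 7 mice, each had an adjusted p of 0.995 (limma). Their values describe where the mice lay, and none counts as a change. The groups did not overlap at any of the 16, which follows in part from their choice by p. Of the lower ones, Hand1 had the smallest p. This basic helix-loop-helix factor of heart and placenta development was covered by 13 CpGs of its 5'UTR and 1st exon at chr11:57831640-57832818 (mm10). The level was 25.8%, 26.1%, 27.4% and 24.2% in LFCR mice 63, 67, 69 and 72 and 32.8%, 33.9% and 31.9% in LFD mice 42, 47 and 48. All 4 restricted mice were below all 3 unrestricted mice, and within each diet the mice lay close together. The difference was -7.00 points (SE 0.940; unadjusted p = 0.000291). LFCR was the lower group at 12 of the 13 CpGs. Control averaged 30.8%, ICR 27.8% and MCR 29.3% at the same CpGs.

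Hoxc12, a posterior Hox factor of limb and trunk patterning, was nearly unmethylated in the restricted mice. Its 15 CpGs lie within 366 bp of the 1st exon at chr15:102936835-102937200. The level was 2.96%, 1.96%, 6.25% and 4.50% in LFCR mice 63, 67, 69 and 72 and 10.5%, 13.0% and 8.49% in LFD mice 42, 47 and 48. LFCR was lower at 15 of 15 CpGs, and the difference was -6.77 points (SE 1.49; unadjusted p = 0.00388). Control averaged 8.79%, ICR 9.05% and MCR 4.37%.

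Greb1, an oestrogen-induced cofactor of the oestrogen receptor, had 56.0%, 57.8%, 59.8% and 61.2% in LFCR mice 63, 67, 69 and 72 and 67.6%, 65.3% and 65.6% in LFD mice 42, 47 and 48. The restricted mice were all lower, by -7.45 points (SE 1.44; unadjusted p = 0.00203), over 7 CpGs spread across 89031 bp. The difference at the Greb1 promoter was -2.22 points without LFCR mouse 63, -3.04 without LFCR mouse 69, -2.48 without LFCR mouse 72 and -4.42 without LFD mouse 42. These runs applied the filters again, so the CpGs used could differ from the 7 above. Their values therefore do not show the part of a single mouse alone. Glis1, a Krüppel-like zinc finger factor, averaged 41.4% ± 0.585 (SD, n = 4) in LFCR against 45.4% ± 0.856 (SD, n = 3) in LFD over 32 CpGs, 27 of them lower. These 32 CpGs were spread across 133667 bp. The 2 of them near the start in RefSeq averaged 0.368% and 0% in LFCR, against 0.694% and 2.28% in LFD. Sox2ot, a long non-coding RNA that overlaps Sox2, averaged 11.1% and 15.2% over 14 CpGs spread across 182321 bp. The difference at the Sox2ot promoter, -4.10 points, was -1.69 without LFCR mouse 63, -1.41 without LFCR mouse 69 and -2.25 without LFCR mouse 72. The CpGs used could change in these runs too. Tspan11, a tetraspanin, averaged 1.82% and 6.73% over 4 CpGs, and Nrip3 4.35% and 12.4% over 4 CpGs that lie within 10 bp of each other.

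Depp1 is induced by progesterone and by FOXO factors, which act when insulin signalling is low. Its level was 28.9%, 25.3%, 24.8% and 25.3% in LFCR mice 63, 67, 69 and 72 and 32.2%, 32.7% and 36.6% in LFD mice 42, 47 and 48. The restricted mice were again all lower, by -7.74 points (SE 1.52; unadjusted p = 0.00221) over 13 CpGs at chr6:116650642-116651994. The stretch around its start is chr6:116650602-116650713 on the plus strand (RefSeq, GRCm38.p6). It holds 2 of the 13 CpGs, shown in capitals:
Depp1: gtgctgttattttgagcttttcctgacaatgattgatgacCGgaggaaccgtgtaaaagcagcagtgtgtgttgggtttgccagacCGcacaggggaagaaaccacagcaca
The first of these CpGs averaged 8.91% in LFCR and 12.5% in LFD, and the other 11.4% and 8.03%, so they differed in opposite directions. The groups overlapped at both CpGs. The differences were -3.57 (SE 2.46) and 3.38 points (SE 3.02), too uncertain to tell whether the start itself differed. Without the 1st exon CpGs, the promoter difference was 0.481 points, opposite in sign to that of the whole set.

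Among the promoters higher in LFCR, Tstd1 had the smallest p. It encodes a small protein of the thiosulfate sulfurtransferase family. Its 3 measured CpGs lie just upstream of the start at chr1:171418957-171419032 (annotated to a 1st exon in the deposited table) and had a median coverage of 56.9 reads. The stretch chr1:171418917-171419062, plus strand (RefSeq, GRCm38.p6), holds all of them, in capitals:
Tstd1: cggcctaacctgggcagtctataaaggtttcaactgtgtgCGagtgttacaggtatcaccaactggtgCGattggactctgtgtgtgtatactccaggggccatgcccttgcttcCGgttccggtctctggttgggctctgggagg
The level over the 3 CpGs was 86.1%, 85.2%, 91.2% and 87.6% in LFCR mice 63, 67, 69 and 72 and 78.9%, 76.2% and 72.6% in LFD mice 42, 47 and 48. Every restricted mouse was above every unrestricted one. The difference was 11.6 points (SE 2.05; unadjusted p = 0.00126). From 5′ to 3′ the 3 CpGs differed by 5.95, 9.65 and 19.2 points, and at none of them alone were the groups apart. The last of them had an average coverage of 13.1 reads. Control averaged 87.0%, ICR 85.9% and MCR 92.2%, and the LFD mice lay below each of these group means.

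Ppfia4, which encodes the synaptic scaffold protein liprin-alpha-4, had 53.1%, 54.2%, 52.9% and 52.6% in LFCR mice 63, 67, 69 and 72 and 49.7%, 45.4% and 40.6% in LFD mice 42, 47 and 48. The restricted mice were higher and closely grouped, and the difference was 7.96 points (SE 2.08; unadjusted p = 0.00854). Nr2f1, the nuclear receptor COUP-TFI, averaged 11.8% ± 0.762 (SD, n = 4) in LFCR against 8.74% ± 1.53 (SD, n = 3) in LFD over 15 CpGs, 12 of them higher. The CpG of Nr2f1 nearest its start in RefSeq averaged 0% in LFCR and 2.01% in LFD, opposite to the whole set. Arid5a, an RNA-binding protein that stabilizes Il6 mRNA, averaged 52.8% and 49.6% over 8 CpGs. Ncmap, a protein of peripheral myelin, averaged 39.4% and 34.9%, and Tmem54, a membrane protein, 11.3% and 6.19%. Gm42809 averaged 29.6% and 22.4%, and Kcnh2, the hERG potassium channel, 51.7% and 46.5%. The 3 Kcnh2 CpGs were spread across 22064 bp.

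**Figure D4:**
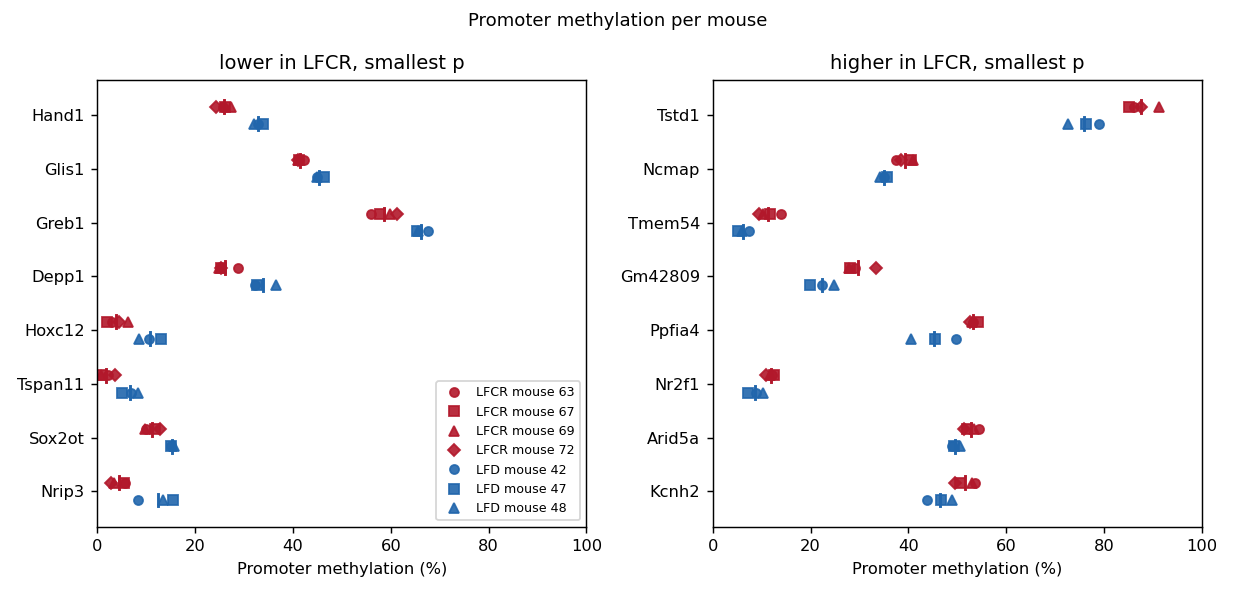
Promoter methylation in percent (x axis) per mouse for the 8 promoters of smallest p lower in LFCR (left) and the 8 higher (right), gene names on the y axis. Points are mice, vertical bars are group means. The groups are apart at each of the 16, and none passed adjustment.

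Regions inside gene bodies held larger differences, also without a call. At Msra, which repairs oxidized methionine, 3 CpGs at chr14:64164569-64164602 read 60.0%, 56.4%, 68.0% and 60.4% in LFCR mice 63, 67, 69 and 72. In LFD mice 42, 47 and 48 they read 88.6%, 82.8% and 82.5%, well above all restricted mice. The difference was -23.4 points (SE 3.50; unadjusted p = 0.000194, adjusted p = 1.00, limma). At Cntfr, the receptor of ciliary neurotrophic factor, 4 CpGs at chr4:41663648-41663708 averaged 58.2% ± 0.604 (SD, n = 4) and 71.2% ± 1.10 (SD, n = 3). Cped1 averaged 70.4% and 85.2% over 5 CpGs. A run of 3 CpGs at chr14:70130977-70131004, in a gene body that the table gives no name, averaged 35.6% and 52.6%.

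In the other direction, the gene body of Krt36, a hair keratin, averaged 83.5% ± 2.75 (SD, n = 4) in LFCR against 67.1% ± 5.14 (SD, n = 3) in LFD over 4 CpGs at chr11:100102236-100102299. Ankrd13b averaged 79.4% and 67.7% in a shore, the flank of a CpG island, Zfp362 85.0% and 68.6%, and an intergenic region annotated to Lmntd1 87.9% and 71.7%. The groups were apart at each of these 8 regions, which follows in part from their choice by p. Over all regions they were apart at 3.01% with LFCR lower and 1.28% with LFCR higher.

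Single CpGs of smallest p showed the same picture at a finer scale. Position chr15:103005916, annotated as intergenic to Hoxc5 and Hoxc6, read 0% in each of the 4 LFCR mice and 13.3%, 16.7% and 12.5% in LFD mice 42, 47 and 48. Its average coverage was 12.3 reads, so 0% rests on few reads per mouse. Dennd2a, an activator of Rab GTPases, had a gene body CpG at chr6:39478643 with 24.9% in LFCR and 49.9% in LFD. A CpG of Igsf9 at chr1:172492166 averaged 93.4% and 77.5%, and one of Dnah7c, an axonemal dynein chain, at chr1:46449026 averaged 92.3% and 78.5%. An island CpG of Trim17, a ubiquitin ligase, averaged 66.2% and 51.1%, and position chr14:70131004 in the unnamed gene body 34.6% and 53.1%. Each had an adjusted p of 1 (limma).

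Genes of nutrient signalling were mostly slightly lower in LFCR, as were promoters at large. Of 13 measured promoters in the insulin, IGF and mTOR list, 0 were called, 9 were lower and 4 higher, with a median of -0.945 points. With 1 mouse left out the median lay between -2.88 (without LFD mouse 42) and -0.118 (without LFCR mouse 67). The groups did not overlap at 2, both lower, beside 3.83% lower and 1.01% higher over all promoters. Grb10, an adaptor that inhibits the insulin receptor and an imprinted gene, had 12.2%, 12.3%, 15.4% and 14.1% in LFCR mice 63, 67, 69 and 72 and 18.2%, 16.4% and 15.9% in LFD mice 42, 47 and 48. The restricted mice were all lower, by -3.36 points (SE 1.09; unadjusted p = 0.0214). The other of the 2 was Igfbp5, an IGF-binding protein, at 0.542% and 1.49% over 3 CpGs (SE of the difference 0.545; limma, unadjusted p = 0.133). Its highest LFCR mouse, 63, was at 0.758% and its lowest LFD mouse, 47, at 0.984%.

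The nutrient sensing and fasting list had 13 measured promoters, with 0 called, 9 lower and a median of -0.789 points, or -1.60 without LFD mouse 42. By computed level the groups were apart at 1 promoter in each direction, beside 3.83% lower and 1.01% higher over all promoters. Sirt4, a mitochondrial sirtuin, averaged 83.0% ± 5.07 (SD, n = 4) in LFCR against 92.3% ± 2.40 (SD, n = 3) in LFD, with the groups apart, a difference of -9.28 points (SE 2.96). Sirt3, another mitochondrial sirtuin, averaged 0.663% and 0% (limma, unadjusted p = 0.257) and was named after its values were seen. LFCR mouse 67 stood at a computed 0.0630% there, against 0% in the LFD mice. Where a mouse lacks CpGs, the way levels were computed can itself give a value that small. The separation at Sirt3, the promoter counted as apart and higher, is therefore not established. Cpt1b, which admits fatty acids to mitochondria, averaged 49.2% and 55.7% over 24 CpGs, with an SD of 11.99 points in LFCR. Tfeb, the regulator of lysosome genes, averaged 39.2% and 36.5%.

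Lists of fat biology gave no call either, and their counts stand beside 67.1% lower over all promoters. Of 6 lipid synthesis promoters 5 were lower, with a median of -0.747 points, or -1.58 without LFCR mouse 63 and -0.448 without LFD mouse 42. Mlxipl, the carbohydrate-responsive factor ChREBP, averaged 33.6% and 39.9%, and Acacb, which makes malonyl-CoA at mitochondria, 18.3% and 21.9%. All 4 adipocyte promoters and all 5 thermogenic fat promoters measured were lower, with medians of -2.77 and -2.05 points, but some differences were near 0. Klf15 and Plin1 differed by -5.46 and -5.96 points, while Cebpa and Cebpb differed by only -0.0832 and -0.0442. The thermogenic differences ranged from -6.52 (Cpt1b) to -0.110 points (Ebf2). With 1 mouse left out the adipocyte median lay between -4.40 (without LFCR mouse 72) and -0.421 (without LFD mouse 47). The thermogenic median was -0.837 without LFCR mouse 69 and -0.770 without LFD mouse 47. Klf15, a fasting-induced factor, averaged 67.1% ± 9.36 (SD, n = 4) and 72.5% ± 3.09 (SD, n = 3), with overlapping groups. Adrb3, the beta-3 adrenergic receptor of fat, had 1.69%, 2.598%, 0.690% and 2.84% in LFCR mice 63, 67, 69 and 72 and 4.50%, 3.86% and 3.65% in LFD mice 42, 47 and 48. The groups were apart there (limma, unadjusted p = 0.0307) and at no other thermogenic promoter, beside 3.83% apart and lower over all promoters.

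Most Hox and other developmental promoters measured were lower in LFCR, without a call, beside 67.1% lower over all promoters. Of 32 Hox cluster promoters 26 were lower and 6 higher, with 0 called and a median of -1.26 points. At 5 of them (Hoxc12, Hoxd13, Hoxd9, Hoxc9 and Hoxa10) all LFCR mice were below all LFD mice, and at 0 above, beside 3.83% and 1.01% over all promoters. Without LFCR mouse 72 the Hox median was -2.28 points, and without LFD mouse 42 it was -1.90. Hoxd13 averaged 2.21% and 4.77%. Of 58 other developmental transcription factors 48 were lower, with a median of -0.905 points, and the groups were apart at 3: Irx3, Sox1 and Pax2. This count is near the share over all promoters (3.83%) and that of promoters under 10% in Control (5.23%). Irx3 averaged 0.375% ± 0.157 (SD, n = 4) and 2.32% ± 0.517 (SD, n = 3), and Sox1 2.39% and 5.42%. The median over the developmental list was -0.443 points without LFCR mouse 63. With the 1st exon CpGs left out it was 0.140 points, on the other side of 0.

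Imprinted genes, which are expressed mainly from 1 parental copy, had 17 of 21 measured promoters lower and a median of -2.55 points, with 0 called. Over all promoters 67.1% were lower. The groups were apart, lower in LFCR, at 4 (Peg13, Cdkn1c, Grb10 and Magel2), beside 3.83% over all promoters. Cdkn1c, the growth-restraining cell cycle inhibitor p57, had 27.2%, 27.6%, 27.1% and 30.2% in LFCR mice 63, 67, 69 and 72 and 33.1%, 30.8% and 31.2% in LFD mice 42, 47 and 48, a difference of -3.67 points (SE 1.08; unadjusted p = 0.0142). Peg13, an imprinted non-coding RNA, averaged 37.3% and 47.3% over 27 CpGs with a median coverage of 15.8 reads, without LFCR mouse 67, which lacked more than 0.5 of them. Its difference was -9.95 points and turned to 3.68 at a coverage minimum of 20 reads. It was 4.37, 1.33 and 2.95 points without LFCR mouse 63, 69 or 72. In those runs only CpGs with a value in LFCR mouse 67 remained, so they cover another set of CpGs than the 27.

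Hormone receptors, tumour suppressors and matrix genes gave 0 calls each, and the counts below stand beside 67.1% lower over all promoters. Of 9 hormone receptor promoters 6 were lower. Rara, the retinoic acid receptor alpha, averaged 33.0% in LFCR and 29.4% in LFD. It alone had the groups apart, beside 1.01% apart and higher over all promoters. Of 10 tumour suppressors silenced in breast cancer 8 were lower. The groups were apart, lower in LFCR, at 2 (Cdkn1c and Dkk3), beside 3.83% over all promoters. Dkk3, a Wnt pathway modulator, averaged 7.37% and 11.7%. Of 15 promoters of epithelial-mesenchymal transition and matrix genes 13 were lower, with a median of -2.12 points, or -1.02 without LFCR mouse 63. Itgb4, an integrin of hemidesmosomes, averaged 54.9% and 61.3%. Of 5 genes of the methylation machinery 4 were lower, and Tet3, which oxidizes methylated cytosine, averaged 55.2% and 57.3%. Of 6 circadian clock promoters 4 were lower, and of 7 inflammation promoters 3. Nfkb1, a subunit of NF-kappa-B, averaged 33.1% ± 0.459 (SD, n = 3) in LFCR without mouse 67 and 24.6% ± 8.59 (SD, n = 3) in LFD. Its 3 CpGs were spread across 40572 bp. LFD mice 42, 47 and 48 had 14.8%, 31.1% and 27.8% there (limma, unadjusted p = 0.113). The difference at Nfkb1 was 8.52 points, and from 3.65 to 11.8 with 1 mouse left out.

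Among marker genes of cell types, the leukocyte promoters varied widely between mice of the same diet. The 6 leukocyte promoters measured in all 7 mice averaged 41.7%, 42.9%, 31.5% and 28.6% in LFCR mice 63, 67, 69 and 72 and 38.6%, 31.8% and 31.7% in LFD mice 42, 47 and 48. LFCR mice 63 and 67 and LFD mouse 42 were the highest, and the groups overlapped. Over all 3716 promoters measured in 7 mice the same 3 mice were the lowest, at 26.8%, 27.4% and 28.2%. Of 8 measured leukocyte promoters 6 were higher in LFCR, with a median of 1.997 points. The sign of this median rests on single mice: it was -0.301 without LFCR mouse 67, -0.378 without LFD mouse 47 and -1.73 without LFD mouse 48, and 7.33 without LFD mouse 42. Vav1, a signalling protein of blood cells, had 32.9%, 31.0%, 12.9% and 17.2% in LFCR mice 63, 67, 69 and 72 and 14.1%, 17.4% and 20.6% in LFD mice 42, 47 and 48. The high values were those of LFCR mice 63 and 67. Zap70, a kinase of T cell receptor signalling, went the other way, with 27.4%, 30.6%, 38.3% and 41.6% in the LFCR mice and 32.6%, 47.5% and 36.8% in the LFD mice, in the same order. Its lowest values were those of LFCR mice 63 and 67.

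Of the other markers, 6 of 7 endothelial promoters were lower in LFCR, both fibroblast promoters measured, 3 of 6 luminal and 2 of 4 skeletal muscle promoters, and the single basal one. Over all promoters 67.1% were lower. Oxtr, the oxytocin receptor of myoepithelial cells, averaged 15.8% and 20.8% and was lower at 16 of 16 CpGs, with overlapping groups. Egfl7 of endothelium averaged 58.3% ± 15.7 (SD, n = 4) and 70.1% ± 8.08 (SD, n = 3). Pdgfra of stromal cells averaged 2.43% and 5.31% with the groups apart, beside 3.83% apart and lower over all promoters. Col1a1 averaged 23.2% and 31.9%. No macrophage marker of the list had a measured promoter. The part of cell makeup in these values was not tested.

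LFCR lay below LFD more often at promoters that were low in MCR, the other group on continuous restriction, and above LFD more often at promoters that were high there. In MCR against Control, which share no mouse with LFCR or LFD, limma called 1125 of 2730 promoters lower (41.2%) and 116 higher (4.25%). Of the 1120 lower ones that were also tested here, LFCR was below LFD at 886 (79.1%), with a median of -1.996 points. Over 1113 of them measured in all 7 mice, LFCR mice 63, 67, 69 and 72 averaged 35.3%, 36.3%, 43.0% and 46.5%, and LFD mice 42, 47 and 48 averaged 37.9%, 46.2% and 43.6%. Control averaged 49.1% and MCR 35.5%. LFCR mice 63 and 67 were at the level of MCR, LFD mouse 42 was close to it, and the other 4 mice lay nearer to Control.

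At the 116 promoters higher in MCR, LFCR was above LFD at 82, with a median of 1.49 points. LFCR mice 63, 67, 69 and 72 averaged 40.9%, 40.98%, 33.6% and 30.6%, and LFD mice 42, 47 and 48 averaged 39.1%, 31.7% and 34.2%. LFCR mice 63 and 67 and LFD mouse 42, the lowest in the first set, were the highest here, and the groups overlapped in both sets. All LFCR mice were below all LFD mice at 19 of the 1120 and above them at 1 of the 116, below the shares over all promoters. Leaving out 1 mouse at a time moved the median from -3.92 (without LFD mouse 42) to -0.518 points (without LFD mouse 47) in the first set and from -0.182 (without LFD mouse 47) to 3.27 (without LFD mouse 42) in the other. Across the 2713 promoters in both comparisons the differences had a Pearson correlation of 0.446 and a Spearman rank correlation of 0.398. Promoters share libraries and are not independent, so this is a description.

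**Figure D5:**
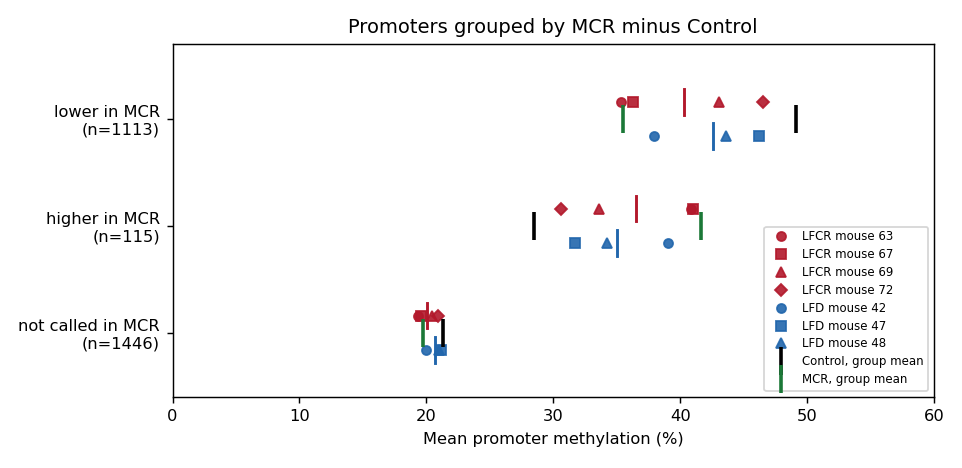
Mean promoter methylation in percent (x axis) per mouse over promoters called lower, called higher or not called in MCR minus Control (y axis, n = promoters measured in all 7 mice). Points are LFCR (red) and LFD (blue) mice, thin bars their means, and black and green bars the group means of Control and MCR. The LFCR mice spread from the level of MCR towards that of Control.

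The promoters that varied most between the 7 mice varied within both diets. A030001D20Rik, a long non-coding RNA, had 18.1%, 16.6%, 45.4% and 76.2% in LFCR mice 63, 67, 69 and 72 and 16.6%, 37.3% and 53.2% in LFD mice 42, 47 and 48. The groups overlapped, with SDs of 28.0 points in LFCR and 18.3 points in LFD. Arhgap30 had 77.5%, 83.5%, 58.4% and 33.1% and then 76.2%, 45.1% and 33.7% in the same order of mice. It was high in LFCR mice 63 and 67 and in LFD mouse 42, and its means were 79.7% in MCR and 30.2% in Control. Gm28342 had 91.0%, 72.5%, 47.0% and 42.4% in LFCR and 49.5%, 32.4% and 36.7% in LFD, which gave the single promoter difference over 20 points (23.7; unadjusted p = 0.114, limma). The groups overlapped there. Gm44699, Tmcc3 and Gm16876, which shares its CpGs with Gm8378 and Ston2, were low in LFCR mice 63 and 67 and high in LFCR mice 69 and 72.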

How the data were processed

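Per the labels, MspI fragments of mammary fat pad DNA, 40 to 170 bp long, were collected and amplified. The submitters' processing notes name Bismark and mm10 without versions. The authors deposited methylation as a fraction (0 to 1) for every library at each CpG. The deposited table also holds the average coverage signal per CpG and, for a contrast the file headers call HCCR vs FOB, a difference in another unit (points) with a p-value and q-value. Read counts per library were not used here, so the planned count model gave way to limma on levels. Levels are printed in percent.

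Members were CpG positions passing the filters given above. A promoter's level in a mouse was its average CpG level over mice plus that mouse's average deviation over its measured CpGs (at least 0.5 of at least 3). The LFCR and LFD libraries alone entered limma (1 term per group, two-sided, Benjamini-Hochberg over all features). Single values were compared by exact permutation tests over 35 splits. Nothing in the labels says how mice were housed, so p-values measure the spread between these samples. The fit was tested on simulated data, where at this number of mice it called few of the single CpGs given a difference.

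Named promoters were the 8 of smallest p in each direction measured in all 7 mice, the 2 of smallest p per list and the 6 of largest SD, with 4 regions and 3 CpGs each way. Hoxd9, Hoxc9, Hoxa10, Pax2 and Magel2 were named after their values were seen. Members, lists and tests were chosen with earlier results of these data known. Of the 16 named promoters 11 were among the RefSeq sequences and 5 had a tested position in their window. Alternatives were coverage minimums of 5 and 20, LFD mouse 46 included, each mouse left out, 21 libraries, an arcsine scale, trend and robust variances, a minimum difference and other promoter and region definitions. With a mouse left out the filters were applied again. A CpG then needed a value in every remaining mouse of that mouse's group, so the CpGs used could change. The software comprised limma 3.58.1 and the data.table package (1.17.8) in R 4.3.3, Python 3.11.15 and matplotlib 3.10.9.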

Additional observations from a re-analysis of the deposited data

Results flagged for a closer look

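Of 113 values checked within the 4 LFCR mice, 5 (4.42%) had 1 mouse far from the other 3, and chance flags about 1 in 20. Glis1 was at 42.3% in LFCR mouse 63 and Depp1 at 28.9% in LFCR mouse 63. Col5a1 was at 28.4% in LFCR mouse 67. Cdkn1c was at 30.2% and Igfbp5 at 0% in LFCR mouse 72. At the CpGs under 5% in Control, the library of LFD mouse 46, which is outside the comparison, read 50.1%.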

How the results depend on the processing

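Counts of 0 called CpG positions, promoters and regions were found under each alternative run. The mean difference ranged from -3.30 (without LFD mouse 42) to -0.335 points (without LFD mouse 47) when 1 mouse was left out and was -5.79 with LFD mouse 46. At CpGs under 10% it ranged from -0.463 to -0.295 points with 1 mouse left out (exact permutation p 0.0667 to 0.133) and was -0.513 with classes set by ICR. The smallest p possible is 0.0667 without an LFD mouse and larger without an LFCR mouse. The number of promoters at an unadjusted p under 0.05 was 21 with LFD mouse 46, 252 without LFCR mouse 72, 225 without LFD mouse 42 and 208 in the fit on 21 libraries, against 140. It was 91 without LFCR mouse 63, 25 with at least 10 CpGs and 34 without the 1st exon, where fewer promoters were tested. For regions it was 328 without LFCR mouse 63, 355 without LFCR mouse 67, 1311 without LFCR mouse 72, 1264 on 21 libraries and 122 with at least 6 CpGs, against 564. No paired analysis was possible because the groups share no replicate numbers.

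With LFD mouse 46 the list medians moved to -8.13 points for insulin, IGF and mTOR, -11.0 for nutrient sensing, -10.6 for lipid synthesis, -10.3 for adipocyte, -10.7 for thermogenic fat and -5.003 for inflammation. They moved to -4.05 for luminal, -7.97 for basal, -3.89 for skeletal muscle, -9.90 for Hox, -10.4 for developmental and -3.46 for hormone receptor promoters. They were -12.2 for circadian, -9.92 for tumour suppressor and -11.9 for matrix promoters. That library reads near 50% at unmethylated CpGs. With at least 10 CpGs per promoter the median was -6.52 for nutrient sensing, 3.61 for hormone receptors and -3.67 for tumour suppressors. Without the 1st exon it was -2.42 for lipid synthesis, 0.140 for developmental factors and -4.74 for tumour suppressors, for which it ranged from -3.06 to -0.366 with 1 mouse left out.

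Among named promoters, LFD mouse 46 turned Ncmap to -3.21, Nr2f1 to -1.84, Tmcc3 to -10.5, Rara to -3.46, Cldn3 to -1.89, Tfeb to -8.98 and Des to -5.81 points. Without the 1st exon, Depp1 was at 0.481, Tet3 at 0.108 and Tfeb at -0.204. At a coverage minimum of 20, Tmcc3 was at -2.54, Peg13 at 3.68 and Krt19 at -0.382. With 1 mouse left out, A030001D20Rik ranged from -8.97 to 12.1, Tmcc3 from -15.8 to 10.2, Gm16876 from -10.6 to 4.53, Peg13 from -12.6 to 4.37 and Des from -0.0936 to 1.38. The CpGs used could change when a mouse was left out, and the cause of these turns was not tested.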

Other observations

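In the authors' deposited table, the contrast named HCCR vs FOB has a q-value at 103881 CpGs, of which 39 have a q under 0.05, 22 lower and 17 higher. Of these 39, 38 were among the CpG positions tested here. The labels used here do not define these names, so the contrast was not equated with LFCR minus LFD.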
